A study of Rattus norvegicus with 40 samples.

Results

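The genes described here encode the proteins of the cytosolic ribosome, and their transcripts were followed in the livers of rats that received GW7647, a synthetic agonist of the nuclear receptor PPARα. Members were taken by name: every gene whose symbol in the platform annotation starts with Rpl or Rps followed by a digit, or with Rplp, apart from the Rps6k kinases. The rule found 42 of the 13438 genes tested, 30 with large-subunit symbols and 12 with small-subunit symbols, each represented by its probe set with the highest mean over the 40 arrays. The rule itself uses symbols and no change with dose.

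The animals were adult male Sprague Dawley SD:CD rats, and no genetic alteration is named for any of them. There were 10 rats in each of 4 groups. The control group was given vehicle, whose composition is not given in the sources used here, and the other groups were given GW7647 at 0.1 mg/kg, 1 mg/kg or 10 mg/kg a day. All were dosed by mouth for 4 days and their livers were taken 24 hours after the last dose, so each value comes from 1 liver on 1 array of labelled RNA. PPARα is the receptor through which fatty acids and fibrate drugs raise the genes of fatty acid oxidation in rodent liver, and its agonists enlarge the liver in these species.

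A ribosome is built from ribosomal RNA and about equal numbers of each ribosomal protein, so the protein genes are usually held at matched levels. Small-subunit proteins (Rps) form the part that reads the messenger RNA, and large-subunit proteins (Rpl) surround the site where amino acids are joined and the tunnel through which the new chain leaves. Their messenger RNAs are among the most abundant in most cells. Most begin with a C followed by a stretch of pyrimidines, the 5′ TOP sequence, through which growth signals by way of mTOR and the protein Larp1 control their translation. In liver, which exports large amounts of plasma protein, they are expressed in every cell type, so in pieces of whole liver fewer cells of a type and less RNA per cell cannot be told apart.

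The annotated start regions of members were searched for this sequence. RefSeq promoter windows of the rat assembly GRCr8, from 250 bases before to 50 bases after the annotated start, were matched for 35 of the 42 members. The examples are some of the genes that rose at the highest dose, followed by Rpl3l, a paralog of Rpl3 that is known from muscle. They are not a balanced set of members. Each is given 5′ to 3′ over 30 bases, 10 before the start and 20 from it on, and capitals mark a run of at least 5 bases that are each C or T: the run that holds the start where the gene has a TOP start, and otherwise the longest. Rpl18 has no such run.
Rpl35a: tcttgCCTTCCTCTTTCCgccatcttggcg
Rpl28: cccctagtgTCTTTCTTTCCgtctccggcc
Rplp0: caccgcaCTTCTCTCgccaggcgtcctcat
Rpl35: CTTCCTCTTTCTCTCgaaccgggcggcctc
Rpl39: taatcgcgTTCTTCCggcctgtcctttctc
Rpl27a: cttggtgggCTCCTCCCTCTTTCTTTTCTg
Rpl13a: TCCTTTCCTaggcggctgccgaagatggcg
Rpl18: acctggtctagcaggaggcgccatcatggt
Rpl3l: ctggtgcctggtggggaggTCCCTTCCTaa

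These windows lie at chr11:81235002-81235031 (minus strand) for Rpl35a, chr1:78083513-78083542 (minus) for Rpl28, chr12:46718371-46718400 (minus) for Rplp0 and chr3:43165902-43165931 (minus) for Rpl35. Those of the other genes are chrX:121195877-121195906 (minus) for Rpl39, chr1:172974563-172974592 (plus) for Rpl27a, chr1:104748894-104748923 (minus) for Rpl13a, chr1:105325260-105325289 (plus) for Rpl18 and chr10:14258436-14258465 (plus) for Rpl3l. In each, the first 10 bases precede the annotated start and the last 20 belong to the start of the first exon.

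A TOP start, read strictly as a C at the annotated start followed by 4 bases that are each C or T, was found in 10 of the 35 member windows, or 28.6%, against 2.63% of all 33469 promoter windows in the table. The 10 genes were Rpl14, Rpl19, Rpl28, Rpl34, Rpl35, Rpl35a, Rpl39, Rplp0, Rps14 and Rps15. Of these, Rpl14, Rpl19, Rpl34 and Rps15 are not among the genes that rose at 10 mg/kg, and their windows are not shown above. Rpl12, Rpl3, Rps6 and Rps9 rose at that dose without a TOP start, and are not shown either. A run of at least 8 pyrimidines within 20 bases of the start, a measure chosen after the windows had been seen and one that overlaps the TOP start, was present in 24 of 35, or 68.6%, against 15.5% of all windows. Rpl13a and Rpl27a have such a run close to an annotated start that is not itself a C followed by 4 pyrimidines. Of the 61 mitochondrial ribosomal protein genes with a window, 2 had a TOP start.

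4 other motifs were searched on both strands of the whole 300-base window. CCGGAAG, the core bound by ETS factors such as Gabpa, was found in 12 member windows, or 34.3%, against 8.75% of all windows and 20 of the 61 mitochondrial ribosomal protein windows. AAGATGGC, the core bound by Yy1, was found in 5, or 14.3%, against 3.17% of all and 14 of the 61 mitochondrial ones, and its first 3 bases can be the last 3 of the ETS core. TATAAA was found in 6, or 17.1%, against 14.2% of all. The DR1 element is the direct repeat with a 1-base spacer that PPARα binds with its partner receptor RXR. Only its exact form was searched, without mismatches, and this form was in none of the 35 and in 18 of all 33469 windows. A form this rare would be unlikely in 35 windows, so its absence does not show that members lack DR1 elements. Among the 14 members that rose at 10 mg/kg, as defined in what follows, 13 had a window and 6 of these had a TOP start, against 4 of the 22 other members. A pyrimidine run was present in 9 of the 13 and 15 of the 22, and the ETS core in 5 of the 13 and 7 of the 22. A match describes these letters only, and no test was made of these counts.

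**Figure D1:**
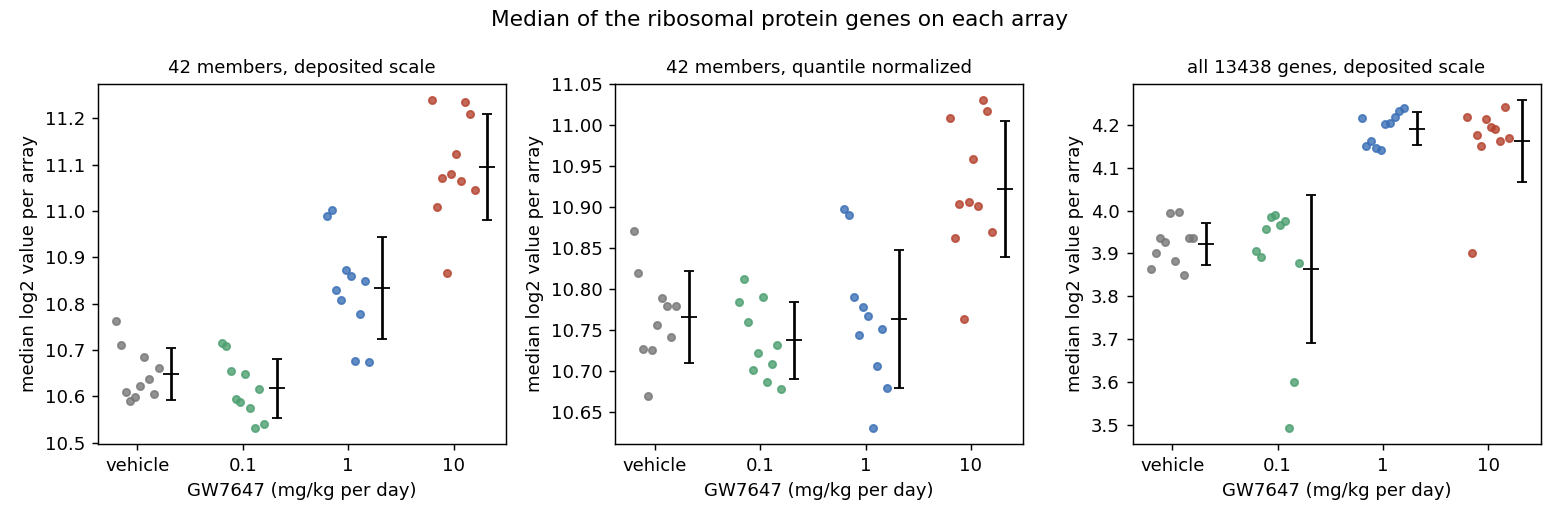
Median log2 value of the 42 member genes on each array by GW7647 dose, as deposited (left) and quantile normalized (middle), beside the median of all 13438 genes on the deposited scale (right); points are arrays and bars are mean ± SD of 10 arrays. The deposited median of the members averaged 10.65 with vehicle and 11.09 at 10 mg/kg, while on the quantile normalized scale the averages were 10.77 and 10.92.

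Values are log2 expression values as deposited. On that scale all genes together were higher at the upper doses: the median change over all 13438 genes was 0.16 at 1 mg/kg and 0.26 at 10 mg/kg, on the log2 scale. Whether all 40 arrays were normalized in 1 run is not given in the sources used here, and its part in the differences between groups as deposited was not tested. The members are therefore given on a second scale too, after quantile normalization, which gives all 40 arrays the same distribution of values. The words rose and fell are kept for genes that passed limma's test in 1 direction on both scales, at a p below 0.05 after Benjamini-Hochberg adjustment across the 13438 genes. The doses share the vehicle group, so their comparisons with it are not independent. Hepatocyte markers were present on every array: all 9 measured, among them Cps1 and Ass1 of the urea cycle, had group means at log2 5 or more in each group. Biliary, lymphocyte and neutrophil markers were low throughout, with at most 1 of 6 biliary and 0 of 8 lymphocyte and neutrophil genes reaching that level in a group.

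36 of the 42 members were bright, meaning that at least 1 group mean was log2 5 or more, and 34 of these had vehicle means between 9.20 and 12.18. The 6 dim members were Rpl26l1, Rpl30, Rpl39, Rpl39l1, Rpl3l and Rps13, whose chosen probe sets stayed under log2 5 in every group. The rule also took in genes that are not standard subunits: Rpl3l, Rpl7l1, Rpl26l1, Rpl39l1 and Rps4y2 carry the names of paralogs, and Rps27a-ps1 is listed as a pseudogene in RefSeq. The Rps27a-ps1 probe set was at 10.78 to 11.14 with vehicle, within the range of standard subunits. Whether it also reads transcripts of Rps27a, which had no probe set of its own symbol, was not tested. Replicate spread was small. Among the bright members the median SD over the 10 vehicle rats was 0.10, against 0.21 for all 5810 bright genes, and the widest was 0.80 for Rps4y2. The 5810 genes were not matched to the members in level. Whether members spread less than genes of like level was not tested.

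At 10 mg/kg 14 of the 42 ribosomal protein genes rose on both scales, from Rpl35 at 0.41 ± 0.04 to Rpl18 at 0.68 ± 0.06 (log2 change ± SE, deposited scale, n = 10 and 10). None fell on both. This was 11 of 30 large-subunit and 3 of 12 small-subunit genes, and the background was 20.4% of all genes higher on both scales and 7.69% lower. On the deposited scale alone 39 members were higher and none lower, where 56.5% of all genes were higher, and the member median was 0.36 against 0.26 for all genes. After quantile normalization 14 members were higher, where 20.4% of all genes were higher, 1 was lower, where 24.4% were lower, and the medians were 0.09 for members and -0.02 for all genes. On the deposited scale 5 members were called higher with a fold of 1.5 or more (Rpl13a, Rpl18, Rpl39, Rps4y2 and Rps6), where 14.8% of all genes were, and none after quantile normalization.

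**Figure D2:**
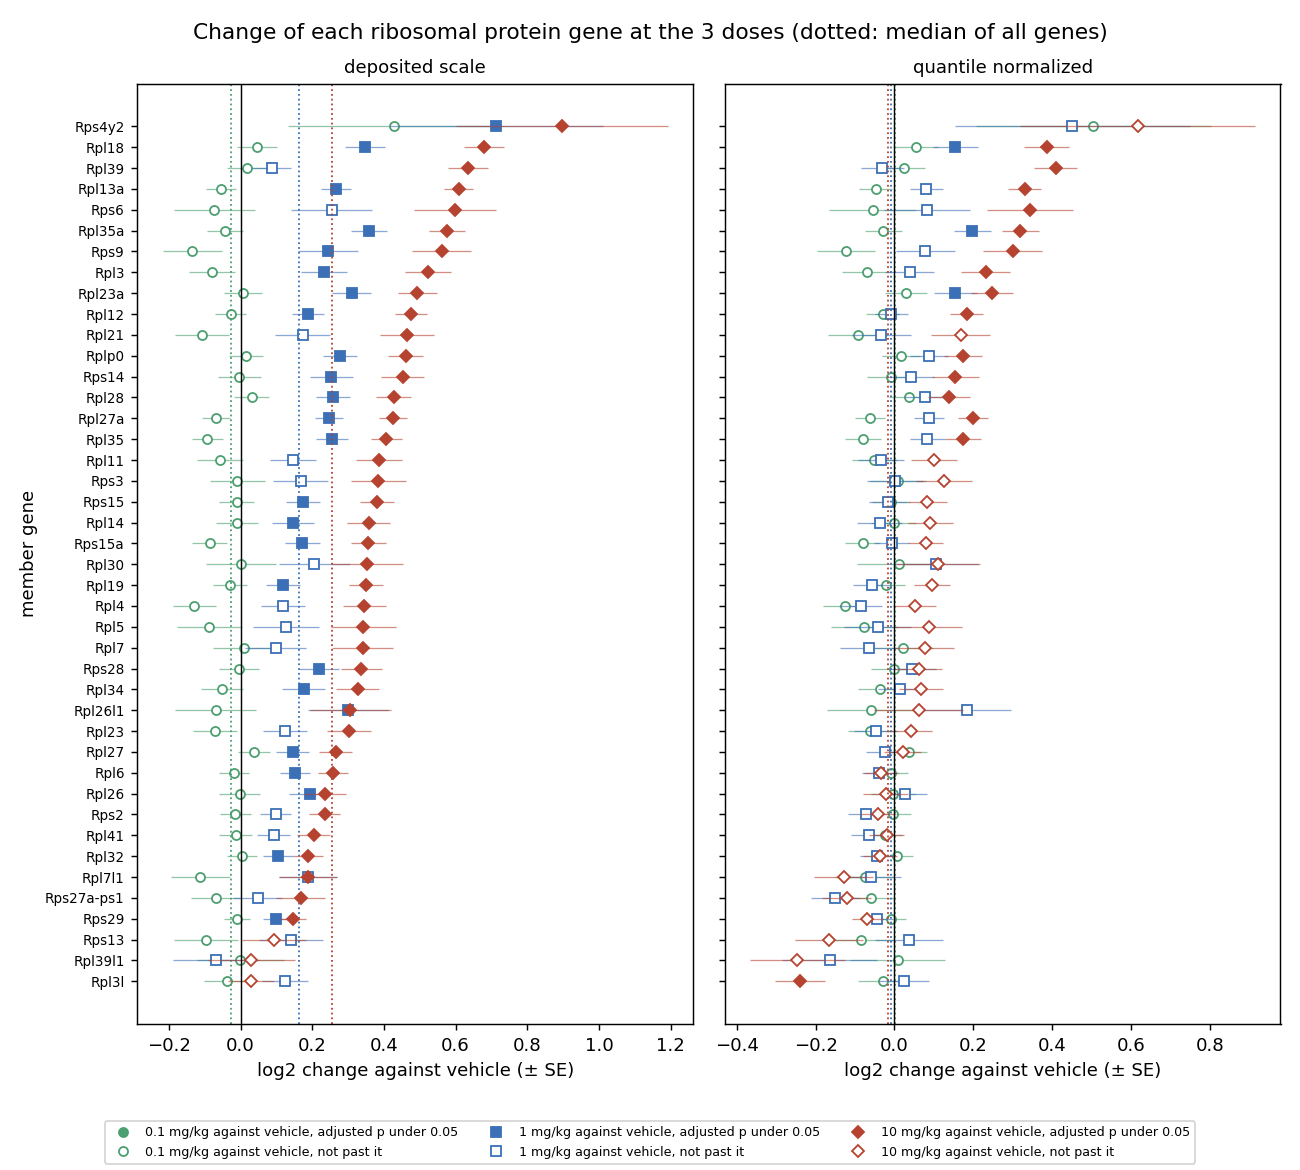
Log2 change of each of the 42 member genes against vehicle at 0.1, 1 and 10 mg/kg (10 rats a group), as deposited (left) and quantile normalized (right); bars are SE, filled symbols have a limma adjusted p under 0.05, and dotted lines are the medians over all 13438 genes. On the left all 42 members lie above 0 at 10 mg/kg, and on the right 31 do.

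Rpl18, a large-subunit protein, had deposited log2 values from 10.54 to 11.05 with vehicle (median 10.59), 10.58 to 10.89 at 0.1 mg/kg (median 10.69), 10.81 to 11.14 at 1 mg/kg (median 11.02) and 11.23 to 11.44 at 10 mg/kg (median 11.34). All 10 livers of the highest dose were above all 10 vehicle livers, and vehicle replicate 1 lay apart at the top of its group. The change at 10 mg/kg was 0.68 ± 0.06 (limma adjusted p = 3.18e-13), and 0.39 ± 0.06 after quantile normalization (adjusted p = 5.56e-07).

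Rpl13a, a large-subunit protein that is often used as a reference gene, was at 10.93 to 11.09 with vehicle (median 11.00), 10.86 to 11.06 at 0.1 mg/kg (median 10.97), 11.14 to 11.43 at 1 mg/kg (median 11.28) and 11.52 to 11.77 at 10 mg/kg (median 11.60). The vehicle, 1 mg/kg and 10 mg/kg groups did not overlap one another. The change at 10 mg/kg was 0.61 ± 0.04 (adjusted p = 6.17e-16), and 0.33 ± 0.04 after quantile normalization (adjusted p = 2.32e-08), where the vehicle and 10 mg/kg livers still did not overlap.

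Rpl35a, another large-subunit protein, was at 10.09 to 10.34 with vehicle (median 10.28), 9.94 to 10.34 at 0.1 mg/kg (median 10.20), 10.45 to 10.75 at 1 mg/kg (median 10.57) and 10.69 to 11.01 at 10 mg/kg (median 10.80). Every liver of the upper doses was above every vehicle liver, while the 1 and 10 mg/kg groups overlapped. It rose by 0.58 ± 0.05 at 10 mg/kg, and by 0.32 ± 0.05 after quantile normalization (adjusted p = 4.99e-07).

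**Figure D3:**
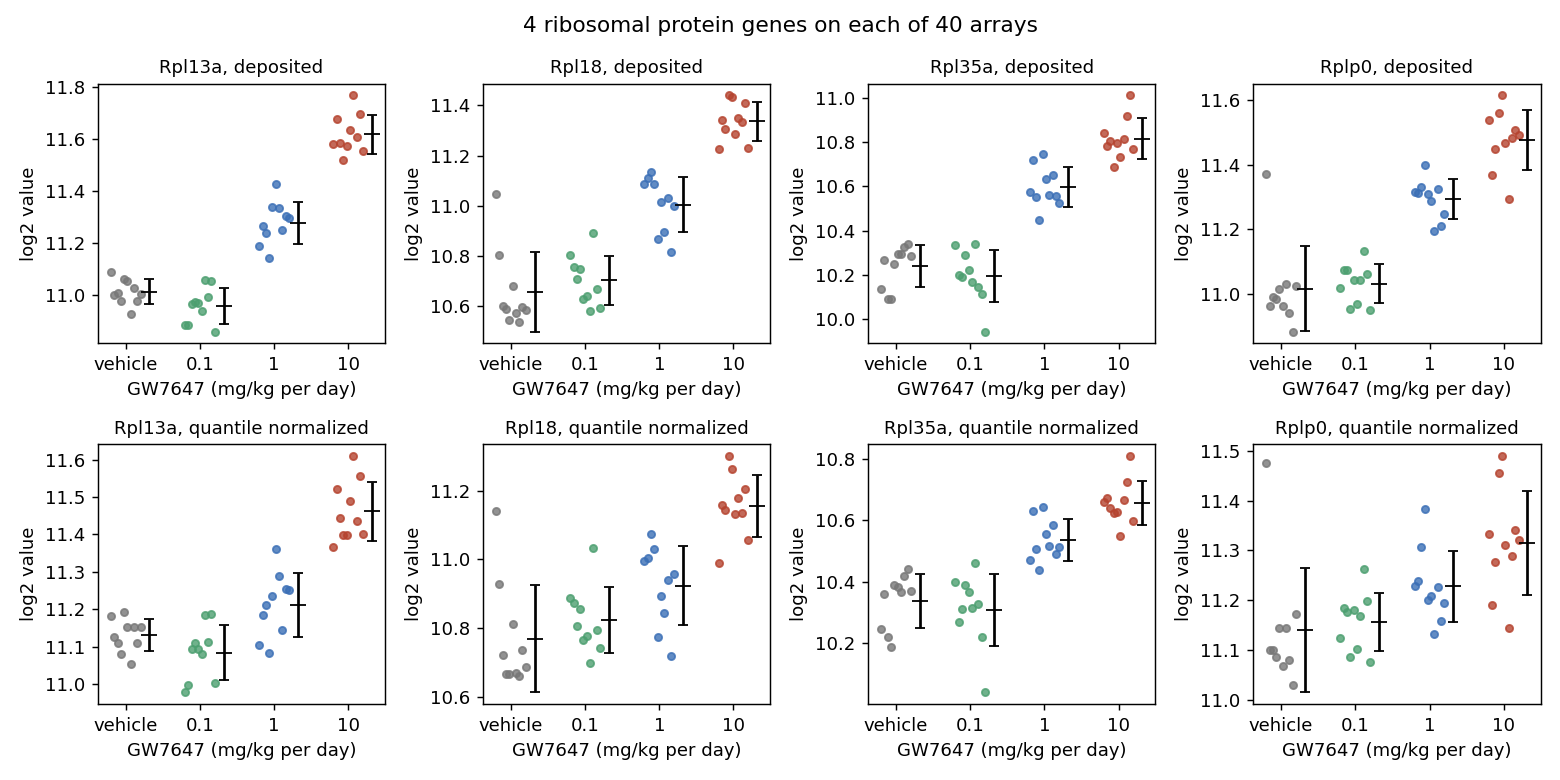
Log2 values of Rpl13a, Rpl18, Rpl35a and Rplp0 on each of the 40 arrays by GW7647 dose, deposited (top) and quantile normalized (bottom); points are arrays and bars are mean ± SD of 10 arrays. Rpl13a and Rpl35a show no overlap between vehicle and 10 mg/kg on either scale, and 1 vehicle array stands above the other 9 for Rpl18 and Rplp0.

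4 more of the members that rose sit around the active site and the exit tunnel of the large subunit. Rpl3 reaches towards the site where peptide bonds form. It was at 10.78 to 11.11 with vehicle (median 10.88) and 11.22 to 11.62 at 10 mg/kg (median 11.44), without overlap on the deposited scale, and changed by 0.52 ± 0.06, or 0.23 ± 0.06 after quantile normalization. Rpl23a and Rpl35 stand at the tunnel exit, where the signal recognition particle docks. Rpl23a changed by 0.49 ± 0.05 and 0.25 ± 0.05, and Rpl35 by 0.41 ± 0.04 and 0.17 ± 0.05, on the deposited and quantile normalized scales.

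Rpl39 lines the exit tunnel itself. Its chosen probe set was dim, at 2.33 to 2.62 with vehicle (median 2.44), 2.25 to 2.68 at 0.1 mg/kg (median 2.47), 2.31 to 2.72 at 1 mg/kg (median 2.54) and 2.95 to 3.31 at 10 mg/kg (median 3.08). The lower doses overlapped vehicle and the highest dose stood clear of every other group. The change of 0.63 ± 0.05, or 0.41 ± 0.05 after quantile normalization, lies in a range of low values where GCRMA's background correction bears on the size of a change.

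Rplp0 forms the base of the stalk that recruits the elongation factors. It was at 10.88 to 11.37 with vehicle (median 10.99), 10.95 to 11.13 at 0.1 mg/kg (median 11.04), 11.19 to 11.40 at 1 mg/kg (median 11.31) and 11.29 to 11.62 at 10 mg/kg (median 11.49). Only vehicle replicate 1 overlapped the 10 mg/kg livers. Rplp0 rose by 0.46 ± 0.05, and by 0.17 ± 0.05 after quantile normalization (adjusted p = 0.00321). Rpl12, which joins the stalk base, rose by 0.48 ± 0.04 and 0.18 ± 0.04 on these scales. Rpl27a rose by 0.43 ± 0.04 and 0.20 ± 0.04, and Rpl28 by 0.43 ± 0.05 and 0.14 ± 0.05.

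3 small-subunit genes rose at 10 mg/kg. Rps6 is the subunit that S6 kinases phosphorylate when growth signals arrive. Its deposited values were 9.60 to 10.24 with vehicle (median 9.76), 9.53 to 10.22 at 0.1 mg/kg (median 9.67), 9.53 to 10.62 at 1 mg/kg (median 10.05) and 10.15 to 10.89 at 10 mg/kg (median 10.45). The groups overlapped, with the highest vehicle liver above the lowest liver at 10 mg/kg. The change was 0.60 ± 0.11 (adjusted p = 2.07e-05), and 0.34 ± 0.11 after quantile normalization (adjusted p = 0.00946).

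Rps9, which lies near the messenger RNA entry channel, was at 10.00 to 10.60 with vehicle (median 10.28) and 10.36 to 11.04 at 10 mg/kg (median 10.84), also with overlap. It rose by 0.56 ± 0.08, and by 0.30 ± 0.07 after quantile normalization. Rps14 rose by 0.45 ± 0.06 and 0.15 ± 0.06. Rps3, which helps form the entry channel, did not pass on both scales, with 0.38 ± 0.08 deposited and 0.13 ± 0.07 after quantile normalization (adjusted p = 0.149).

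Rpl5 and Rpl11 bind 5S ribosomal RNA and, when not built into ribosomes, the p53 regulator Mdm2. Neither passed on both scales. Rpl11 was at 10.54 to 10.84 with vehicle and 10.72 to 11.25 at 10 mg/kg, a deposited change of 0.39 ± 0.06. After quantile normalization it was 0.10 ± 0.06, with a 95% interval of -0.02 to 0.22. For Rpl5 the values were 0.34 ± 0.09 and 0.09 ± 0.09, the second with an interval of -0.09 to 0.26. These intervals do not show that the genes were unchanged.

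Of the 28 members that did not rise on both scales, 25 were higher on the deposited scale alone. Among them Rpl41 changed by 0.20 ± 0.05 deposited and -0.02 ± 0.04 after quantile normalization, Rpl32 by 0.19 ± 0.04 and -0.04 ± 0.04, and Rps29 by 0.15 ± 0.04 and -0.07 ± 0.04. Their 95% intervals on the second scale were -0.11 to 0.07, -0.12 to 0.05 and -0.15 to 0.01.

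The paralogs and the pseudogene gave no call on both scales. Rps4y2 had the largest deposited change of all members, 0.90 ± 0.30, but its livers ranged from 3.51 to 5.59 with vehicle and 3.86 to 6.36 at 10 mg/kg, and the quantile normalized change was 0.62 ± 0.30 (adjusted p = 0.0891). Rpl3l was at 1.87 to 2.33 with vehicle and 1.90 to 2.26 at 10 mg/kg. Its change was 0.03 ± 0.06 deposited and -0.24 ± 0.06 after quantile normalization (adjusted p = 0.00205), so its direction turned with the scale. Rpl39l1, paralog of the tunnel protein Rpl39, changed by 0.03 ± 0.12 and -0.25 ± 0.12, Rpl7l1 by 0.19 ± 0.08 and -0.13 ± 0.08, Rpl26l1 by 0.31 ± 0.11 and 0.06 ± 0.11, and Rps27a-ps1 by 0.17 ± 0.07 and -0.12 ± 0.06.

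In 15 members every liver at 10 mg/kg was above every vehicle liver on the deposited scale, where this held for 13.0% of all genes. After quantile normalization it held for Rpl13a, Rpl27a, Rpl35a and Rpl39, and for 3.63% of all genes.

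With each vehicle or 10 mg/kg array left out in turn, 12 of the 14 rose in all 20 fits, Rpl28 in 15 and Rps14 in 14.

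The number called depends on how the arrays are scaled. Shifting each array to a common median left 19 members higher at 10 mg/kg and 1 lower, with 23.5% of all genes higher. Shifting by the 18 hybridisation control probe sets left 6 higher, namely Rpl13a, Rpl18, Rpl23a, Rpl35a, Rpl39 and Rps9, with 16.6% of all genes higher. Under that scaling Rpl3, Rpl35, Rplp0 and Rps6 kept changes above 0, from 0.17 to 0.36, but no longer passed, like the other 4 of the 14. The direction of 31 members at 10 mg/kg was above 0 after quantile normalization, 32 with a common median and 34 with the hybridisation controls.

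**Figure D4:**
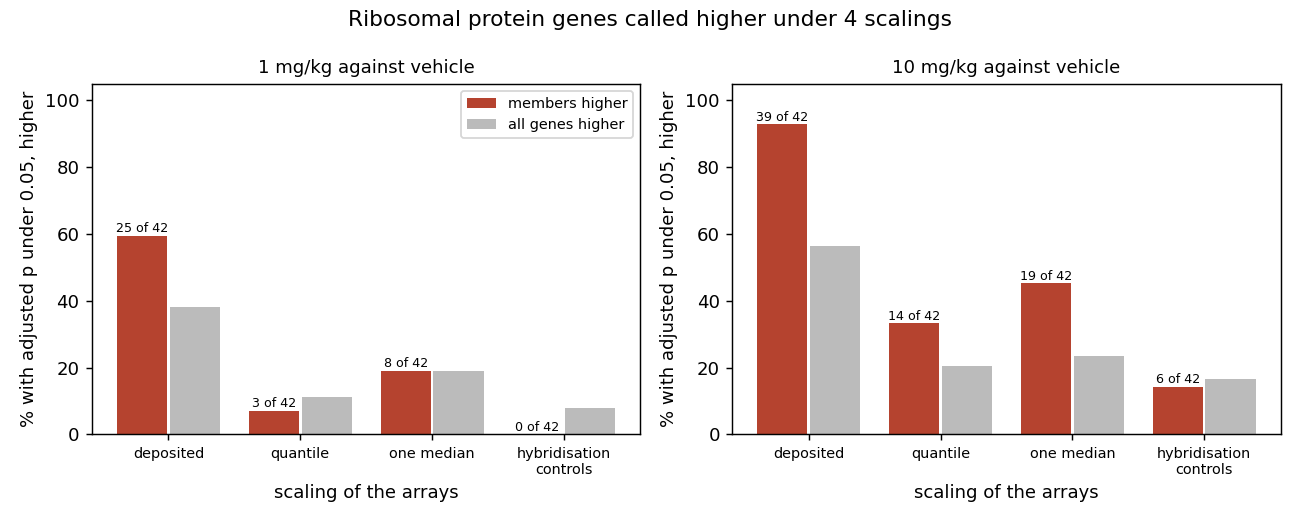
Percent of the 42 member genes (red) and of all 13438 genes (grey) called higher than vehicle (limma adjusted p under 0.05) under 4 scalings of the arrays, at 1 mg/kg (left) and 10 mg/kg (right). Counts over the red bars fall from 39 to 6 of 42 at 10 mg/kg and from 25 to 0 at 1 mg/kg.

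Other genes of like level were set beside the members. 642 genes that are no members had vehicle means in the range of those 34 members, and of these 164 rose and 134 fell at 10 mg/kg, with medians of 0.15 deposited and -0.12 after quantile normalization. Of the 34 members in that range 13 rose and none fell, with medians of 0.37 and 0.09. No test was made of this difference.

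At 1 mg/kg 3 of the 42 members rose on both scales and none fell, against a background of 11.1% of all genes higher and 3.37% lower. They were Rpl35a (0.36 ± 0.05 deposited, 0.20 ± 0.05 quantile normalized, adjusted p = 0.00193 on the second scale), Rpl18 (0.35 ± 0.06 and 0.15 ± 0.06) and Rpl23a (0.31 ± 0.05 and 0.15 ± 0.05). On the deposited scale 25 members were higher and none lower, where 38.2% of all genes were higher. After quantile normalization 3 were higher and none lower, where 11.1% of all genes were higher and 12.1% lower. Every 1 mg/kg liver was above every vehicle liver for Rpl13a, Rpl35 and Rpl35a as deposited, where this held for 4.69% of all genes, and for no member after quantile normalization, where it held for 1.30%. The member medians were 0.17 deposited and -0.00 after quantile normalization, against 0.16 and -0.01 for all genes. The count of 3 in 42 is below the background share.

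When each array of the vehicle and 1 mg/kg groups was left out in turn, Rpl35a rose in all 20 fits, Rpl23a in 14 and Rpl18 in 5. The count was 1 without vehicle replicate 7 and also without 1 mg/kg replicate 10, and 1 with the replicate number as a block. No member passed with the hybridisation controls as the scale, where 7.89% of all genes were higher and 1 member had an unadjusted p under 0.05. Rps6 was at 0.25 ± 0.11 deposited and 0.08 ± 0.11 after quantile normalization, Rplp0 at 0.28 ± 0.05 and 0.09 ± 0.05, and Rpl13a at 0.27 ± 0.04 and 0.08 ± 0.04, none of them past the threshold on both scales.

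No member differed from vehicle at 0.1 mg/kg on either scale, by limma with the same adjustment, where 0.0819% of all genes were higher and 0.0149% lower as deposited, 0.0893% and 0.00744% after quantile normalization, and 0.0819% and 0.00744% on both. No member had its 10 livers all above vehicle on either scale, which held for 0.0149% of all genes on each. At an unadjusted p under 0.05 there were 2 members as deposited and 1 when quantile normalized, beside 587 and 548 of all 13438 genes. The member median was -0.02 on both scales, and 10 of 42 members were above 0 as deposited. Changes ran from -0.13 for Rps9 to 0.43 for Rps4y2, whose SE was 0.30.

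Between 0.1 and 1 mg/kg 5 members rose on both scales and none fell, where 10.5% of all genes rose and 2.95% fell. They were Rpl35a (0.40 ± 0.05 and 0.23 ± 0.05), Rps9 (0.38 ± 0.08 and 0.20 ± 0.07), Rpl35 (0.35 ± 0.04 and 0.16 ± 0.05), Rpl13a (0.32 ± 0.04 and 0.13 ± 0.04) and Rpl27a (0.32 ± 0.04 and 0.15 ± 0.04). The count of 5 members is close to the background share. Rps9 rose in 4 of 20 fits with an array left out, and without 1 mg/kg replicate 6 the count was 3. Deposited values alone gave 33 members higher, where 45.4% of all genes were higher. The 2 groups did not overlap for 6 members as deposited, where this held for 5.75% of all genes, and for none after quantile normalization, where it held for 1.06%.

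Between 1 and 10 mg/kg 8 members rose on both scales and none fell, against 8.55% of all genes that rose and 5.98% that fell. Rpl39 had the largest step, 0.55 ± 0.05 deposited and 0.44 ± 0.05 after quantile normalization, followed by Rpl13a at 0.34 ± 0.04 and 0.25 ± 0.04 and Rpl18 at 0.33 ± 0.06 and 0.23 ± 0.06. The others were Rps9, Rpl3, Rpl12, Rpl19 and Rpl27a. On the deposited scale 27 members were higher, where 24.2% of all genes were higher. After quantile normalization 8 were higher and Rpl3l was lower (-0.26), where 8.58% of all genes were higher and 9.74% lower. Every 10 mg/kg liver was above every 1 mg/kg liver for 5 members as deposited (2.46% of all genes), and for Rpl13a and Rpl39 after quantile normalization (0.930%). Rpl35a and Rpl23a, which rose at 1 mg/kg, had further steps of 0.22 ± 0.05 and 0.18 ± 0.05 as deposited, and 0.12 ± 0.05 and 0.09 ± 0.05 after quantile normalization, which did not pass.

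A further 41 probe sets of the family carry several gene symbols, mostly a ribosomal protein gene with its pseudogenes or retrocopies, and name no gene here. At 10 mg/kg 21 of these 41 rose on both scales and none fell, where 18.2% of all 31042 probe sets rose and 5.86% fell. Their median change was 0.41 deposited and 0.13 after quantile normalization, with a range as deposited of -0.03 to 1.01. On the deposited scale alone 38 were higher, where 60.1% of all probe sets were higher. At 1 mg/kg 7 of the 41 rose and none fell, where 9.13% of all probe sets rose and 3.03% fell. At 0.1 mg/kg none of them passed by limma on either scale, where 0.0387% of all probe sets rose and 0.00322% fell.

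5 members had a second probe set with the same single symbol. At 10 mg/kg both probe sets of Rpl28 rose, by 0.43 and 0.45 as deposited, the second at a vehicle mean of 1.88. For Rpl14 the brighter gave 0.36 and the dim second one 0.49. The second probe sets of Rpl3 and Rpl7 went against the first: -0.06 beside 0.52 for Rpl3, and -0.12 beside 0.34 for Rpl7. With the mean of a gene's probe sets in place of the brightest, Rpl3 changed by 0.23 at 10 mg/kg as deposited and no longer passed on both scales, there or between 1 and 10 mg/kg. Those of Rpl7l1 gave 0.19 and 0.16.

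Other genes that make or serve the ribosome were taken from lists of textbook members. Of the ribosome genes outside the naming rule, Rack1, a scaffold on the small subunit, rose by 0.55 ± 0.05 (0.29 ± 0.05 after quantile normalization) at 10 mg/kg and Rpsa, a small-subunit protein, by 0.41 ± 0.05 (0.14 ± 0.05). Of 14 elongation factors and other genes with TOP-type transcripts 5 rose and none fell, among them Nap1l1, a histone chaperone, by 1.16 ± 0.12, and the initiation factor subunits Eif3k by 0.62 ± 0.06 and Eif3l by 0.58 ± 0.04. Of 27 initiation factors 7 rose and none fell, with Eif2b2, part of the exchange factor for eIF2, at 0.88 ± 0.12.

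In ribosomal RNA transcription and processing 12 of 47 genes rose and none fell. Polr1a, the largest subunit of RNA polymerase I, rose by 1.23 ± 0.10, and Gar1 and Nhp2, which belong to the particles that pseudouridylate ribosomal RNA, by 1.22 ± 0.19 and 1.16 ± 0.08. In subunit assembly and export 13 of 47 rose and none fell, with Rrp12 at 1.01 ± 0.16, Nvl at 0.98 ± 0.12 and Dimt1, a ribosomal RNA methyltransferase, at 0.94 ± 0.21. Of 16 growth-signalling genes 3 rose and none fell: Gabpa, an ETS factor, by 1.00 ± 0.16, the translation repressor Eif4ebp1 by 0.72 ± 0.09 and the mTORC1 component Akt1s1 by 0.66 ± 0.07. These are deposited log2 changes, and each of the genes named also passed after quantile normalization. These counts stand beside 20.4% of all genes that rose. Deposited vehicle means were under log2 5 for Polr1a (3.39), Gar1 (3.99), Rrp12 (3.54), Nvl (3.18), Dimt1 (4.51) and Gabpa (3.97). Nhp2, Eif4ebp1 and Akt1s1 were brighter, at 7.40, 7.03 and 7.37. As for Rpl39, GCRMA's background correction bears on the size of a change at low values.

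Mitochondrial ribosomal proteins, which build the separate ribosome of that organelle, formed the largest of these lists. At 10 mg/kg 37 of 73 rose, where 20.4% of all genes rose and 7.69% fell. At 1 mg/kg 15 of 73 rose, where 11.1% of all genes rose and 3.37% fell. None of the 73 fell at either dose. Their median change at 10 mg/kg was 0.51 deposited and 0.20 after quantile normalization, beside 0.36 and 0.09 for the cytosolic members. Mrpl30 rose by 1.47 ± 0.14, Mrps6 by 1.23 ± 0.09 and Mrps18b by 1.13 ± 0.09. The difference between these families was not tested.

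**Figure D5:**
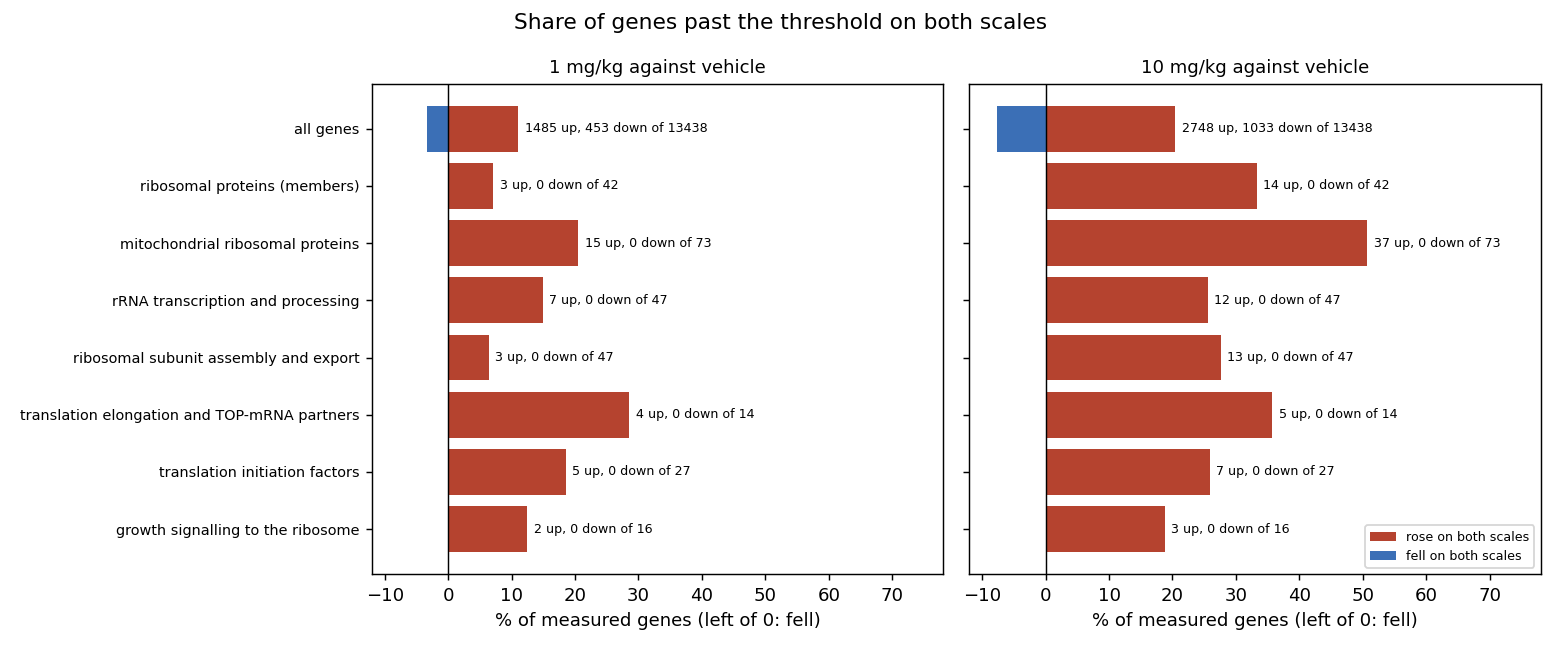
Percent of the measured genes in each list that rose (red, right of 0) or fell (blue, left of 0) on both scales against vehicle at 1 mg/kg (left) and 10 mg/kg (right), with counts. At 10 mg/kg the cytosolic ribosomal proteins stand at 14 of 42, all genes at 2748 up and 1033 down of 13438, and the mitochondrial ribosomal proteins at 37 of 73.

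Several other measures moved with dose beside these results, and their part in them was not tested. The mean of 24 poly-A control probe sets, RNAs of bacterial genes that are added before labelling, had a log2 level of 5.57 ± 0.37 with vehicle (mean ± SD over 10 arrays). It was 5.84 ± 0.28 with 0.1 mg/kg, then 6.22 ± 0.73 with 1 mg/kg, and 6.56 ± 0.38 with the highest dose. With this level as a covariate 15 members rose on both scales at 10 mg/kg, 12 of them among the 14, where 17.2% of all genes rose. At 1 mg/kg 2 members rose with the covariate, and the share of all genes in that fit is not given here. Without the covariate 3 members rose at 1 mg/kg, where 11.1% of all genes rose. The 1 mg/kg group was split: arrays 1 to 4 had poly-A controls at 5.46 ± 0.21 and arrays 5 to 10 at 6.72 ± 0.41. The quantile normalized median of the 42 members was 10.83 ± 0.08 in the first 4 and 10.72 ± 0.06 in the other 6. With only arrays 1 to 4, 2 members rose at 1 mg/kg (Rpl18 and Rpl28), where 6.99% of all genes rose. Between 0.1 and 1 mg/kg 3 rose (Rpl27a, Rpl35 and Rpl35a), where 6.48% of all genes rose, and between 1 and 10 mg/kg 3 rose (Rpl12, Rpl13a and Rpl39), where 3.93% did.

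Cell markers moved as well, beside 7.69% of all genes that fell and 20.4% that rose on both scales at 10 mg/kg. At 1 mg/kg 3.37% of all genes fell and 11.1% rose. Of 8 Kupffer cell and macrophage markers 7 fell at 10 mg/kg and 4 at 1 mg/kg. Their mean log2 value ran from 6.66 to 7.47 with vehicle, 6.82 to 7.57 at 0.1 mg/kg, then from 6.40 to 7.55 with 1 mg/kg, and from 5.90 to 7.02 with the highest dose. Of 9 hepatocyte markers 4 fell at 10 mg/kg, led by Ass1 at -1.44 ± 0.11, and 1 at 1 mg/kg, and their mean ran from 12.21 to 12.38 with vehicle and 11.96 to 12.21 at 10 mg/kg. At 10 mg/kg 2 of 10 endothelial and stellate markers fell and 1 rose, 1 of 6 biliary markers fell and 2 rose, and 1 of 4 erythroid markers rose. Those that rose, Col1a1, Epcam, Sox9 and Alas2, had low vehicle means of 3.14, 4.74, 1.51 and 3.06. Of those that fell, Des and Spp1 were also low, at 3.31 and 3.45, and Kdr was at 7.85. No lymphocyte or neutrophil marker of 8 passed on both scales.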

How the data were processed

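The authors deposited 1 log2 value for each probe set and array. The submitters' processing notes name GCRMA and Partek, without versions. GCRMA corrects background by probe sequence, so dim probe sets sit near a floor. Of 31139 probe sets, 19069 had 1 symbol, 572 several and 11498 none. Each gene was read from its brightest probe set by mean over the 40 arrays. Contrasts came from 1 limma 3.58.1 model (R 4.3.3, 4 group means, 36 residual degrees of freedom, two-sided, adjusted over 13438 genes), tested on simulated data. limma also gave the quantile normalization. The number of arrays limits the precision.

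Members, lists and tests were chosen with earlier results of these data known. Named were the largest changes past the threshold on both scales (8 each way at 10 mg/kg, 5 at 1 mg/kg, 3 otherwise, and 3 per list), fixed members of known role, and, after their values were seen, other members given by value. Genes with LOC or RGD symbols were not named. Rplp1, Rplp2 and other proteins of the rule without a probe set of their own symbol are not among the 42. Same-numbered rats had mean correlations of deviations from -0.01 to 0.17, the highest between 1 and 10 mg/kg, where 5 of 10 pairs were over 0.1. No pair of groups had all 10 over 0.1, and the main model was given no block. That rule does not exclude structure shared by same-numbered arrays. Between 1 and 10 mg/kg the mean was 0.17 for same-numbered arrays and -0.02 for the others. Counts with the replicate number as a block are given with the other settings. Protein sequences and the promoters of 7 members were not used here. Figures used Python 3.11.15 and matplotlib 3.10.9.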

Additional observations from a re-analysis of the deposited data

Results flagged for a closer look

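The 60 groups of 10 livers examined were those of members named by rule and of the median over the members. In 5 of the 60, 1 liver stood apart from the other 9 by a gap that was large against the range of the group (Dixon's ratio above 0.466). Chance alone flags about 1 in 20. Vehicle replicate 1 was the highest of its group for Rplp0, at 11.37 with the next liver at 11.03, and for Rpl18, at 11.05 with the next at 10.81. Rpl11 had its lowest liver at 10 mg/kg in replicate 4, at 10.72 with the next at 10.97. Rpl5 had its lowest at 0.1 mg/kg in replicate 8, at 9.60 with the next at 9.97, and that array also had a low upper quartile over all probe sets. Rps9 had its highest at 0.1 mg/kg in replicate 9, at 10.44 with the next at 10.19. The upper quartile of that array was also low, at 4.47.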

How the results depend on the processing

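The counts of members called moved with the scaling and with the fold that was tested against. Main deposited counts were 25 at 1 mg/kg, 39 at 10 mg/kg, 33 between 0.1 and 1 mg/kg and 27 between 1 and 10 mg/kg. In that order they were 3, 15, 5 and 9 after quantile normalization, 8, 20, 10 and 6 with 1 median, and 0, 6, 1 and 2 with the hybridisation controls. These counts take higher and lower together. The only member called lower was Rpl3l, at 10 mg/kg and between 1 and 10 mg/kg, after quantile normalization and with 1 median. Of all genes, 38.2%, 56.5%, 45.4% and 24.2% were higher as deposited, and 3.37%, 7.69%, 2.95% and 6.36% lower. After quantile normalization 11.1%, 20.4%, 10.5% and 8.58% were higher, and 12.1%, 24.4%, 11.4% and 9.74% lower. With 1 median 18.9%, 23.5%, 21.6% and 8.82% were higher, and 9.03%, 20.5%, 8.64% and 13.8% lower. With the hybridisation controls 7.89%, 16.6%, 12.6% and 4.52% were higher, and 5.04%, 13.4%, 3.07% and 4.05% lower. Median changes of members at 1 and 10 mg/kg were -0.0024 and 0.089 after quantile normalization, beside -0.0089 and -0.016 for all genes. They were 0.052 and 0.117 with 1 median, beside 0.043 and 0.018 for all genes. With the hybridisation controls they were 0.0031 and 0.122, beside -0.0061 and 0.023. Tested against 1.2-fold the counts were 0, 16, 0 and 1, and on both scales 0, 1 (Rpl39), 0 and 0. Shares over all genes are not set in this paragraph beside the 1.2-fold counts or the counts that follow. Those counts only describe how the member counts moved, and do not show whether members exceed the background. With only the 2 groups compared, 4 rose between 1 and 10 mg/kg. With only arrays 1 to 4 at 1 mg/kg, 11 were called between 1 and 10 mg/kg, and 3 rose in each step on both scales. With the replicate block, 1 rose at 1 mg/kg (Rpl35a), and no other count moved by over 1.5 times. With the poly-A controls as a covariate, an alternative chosen after seeing the data, the deposited median of members at 10 mg/kg was 0.434. The median of all genes in that fit is not given here, so a shift of all genes is not separated from it. Leaving out each array gave 21 to 29, 37 to 39, 30 to 35 and 22 to 28 called, and 1 to 4, 13 to 15, 3 to 5 and 6 to 12 rising on both scales. Without the 2 arrays at 0.1 mg/kg of low upper quartile (replicates 8 and 9, added after seeing the data), the same 14 rose at 10 mg/kg. Rpl3l at 10 mg/kg turned from 0.03 to -0.24 (quantile), -0.21 (1 median), -0.20 (hybridisation controls) and -0.012 (array weights). Except for the construction of each alternative, the cause was not tested. At 0.1 mg/kg no setting called a member. Dim members limit what can be said of Rpl39, Rpl3l and Rpl39l1.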
